A study of Mus musculus with 4 samples.

Results

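The genes that add methyl groups to lysine 9 of histone H3 (H3K9) and the genes that take them off were compared between melanoma tumor repopulating cells (TRCs) and the parental cells they came from. The group holds 10 genes, chosen by symbol among the 39179 genes of the count tables. They are 5 methyltransferase genes (*Suv39h1*, *Suv39h2*, *Ehmt1*, *Ehmt2* and *Setdb1*, called writers here) and 5 demethylase genes of the JmjC type (*Kdm3a*, *Kdm3b*, *Kdm4a*, *Kdm4b* and *Kdm4c*, called erasers here). The RNA-seq libraries are 2 of control cells, which are parental B16F1 cells of a mouse melanoma line, and 2 of TRCs. The TRCs were cells of the same line that had formed spheroids in soft fibrin gels of 90 Pa and were taken out on day 5. In either group the samples are numbered 1 and 3. Both groups are 1 cell line, nothing in the sources used here says whether samples of a group were separate cultures, and p-values therefore measure the spread between these samples. The TRCs differ from the control cells in culture in a soft gel as well as in selection, and these cannot be told apart. Histone methylation itself was not measured.

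Methyl groups on H3K9 mark silent chromatin. SUV39H1 and SUV39H2 place trimethylation at the repeats around centromeres, EHMT1 (GLP) and EHMT2 (G9a) work as a pair that places mono- and dimethylation in gene-rich chromatin, and SETDB1 is brought by TRIM28 and zinc finger proteins to retroelements and silenced genes. The JmjC erasers need iron, molecular oxygen and alpha-ketoglutarate for each methyl group removed. KDM3A and KDM3B act on mono- and dimethylated H3K9, and KDM4A, KDM4B and KDM4C act on the trimethylated form and also on H3K36. Transcription of *Kdm3a*, *Kdm4b* and *Kdm4c* is known to be raised by hypoxia-inducible factor in many cell types.

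The libraries held from 35948295 to 43511554 counts on genes. Every one of the 10 genes passed the filter on low counts and was among the 11483 genes tested, with between 526 and 13278 counts per library, so that counting error alone was at most 4.36% of a value. Levels are given as CPM, counts scaled to a common library size with TMM factors, and pairs of values stand in the order replicate 1, replicate 3. All log2 fold changes are TRCs over control cells, and FDR is the Benjamini-Hochberg value of edgeR's exact test over all genes tested. Standard errors (SE) and 95% intervals of log2 fold changes come from DESeq2. With 2 against 2 libraries an exact permutation test of a single gene cannot give a two-sided p under 0.333, so p-values rest on the model fitted across genes. The melanocyte genes *Mitf*, *Dct*, *Tyr*, *Tyrp1*, *Pmel*, *Mlana* and *Sox10* were expressed in all 4 libraries, with summed levels of 18915 and 15711.5 CPM in control cells against 23969 and 26669 CPM in TRCs, and *Dct* was called higher (log2 fold change 1.08, FDR = 0.000307, and 0.0704 in the quasi-likelihood test). Of 7 leukocyte markers 5 had no count in any library, *Ptprc* among them, and the summed level was from 1.66 to 4.93 CPM. The 6 fibroblast markers summed to 11.4 and 9.83 CPM in control cells and to 5.68 and 3.10 CPM in TRCs, with *Col1a2* called lower, and the 6 endothelial markers to between 0.567 and 2.50 CPM. In bulk RNA, fewer cells of a kind and less RNA per cell cannot be told apart.

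*Kdm4b* was the one gene of the 10 that was differentially expressed at FDR under 0.05, and it was higher in TRCs. Among all genes tested, 15.9% were called, 8.81% higher and 7.05% lower, so 1 of 10 called higher and 0 of 10 called lower is close to the share in the whole table. At an unadjusted p under 0.05, 3 erasers were higher (*Kdm4b*, *Kdm3a* and *Kdm4c*) and 2 writers lower (*Suv39h1* and *Suv39h2*), against 14.8% and 13.2% of all genes tested (28.0% in either direction). By DESeq2's Wald test *Kdm3a* was called higher as well and 0 of the 10 genes lower, where 9.49% and 8.24% of all genes were called. By edgeR's quasi-likelihood test *Kdm4b* was called higher and 0 of the 10 lower, where 4.94% and 4.24% of all genes were called. The median log2 fold change was 0.56 for the erasers and −0.26 for the writers, beside 0.00 for all genes tested. The groups did not overlap for 6 genes, 3 erasers with the TRC values higher and 3 writers with them lower. Of all genes tested, 60.6% did not overlap, 30.2% with TRC values higher and 30.4% lower, so that such a split was common.

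**Figure D1:**
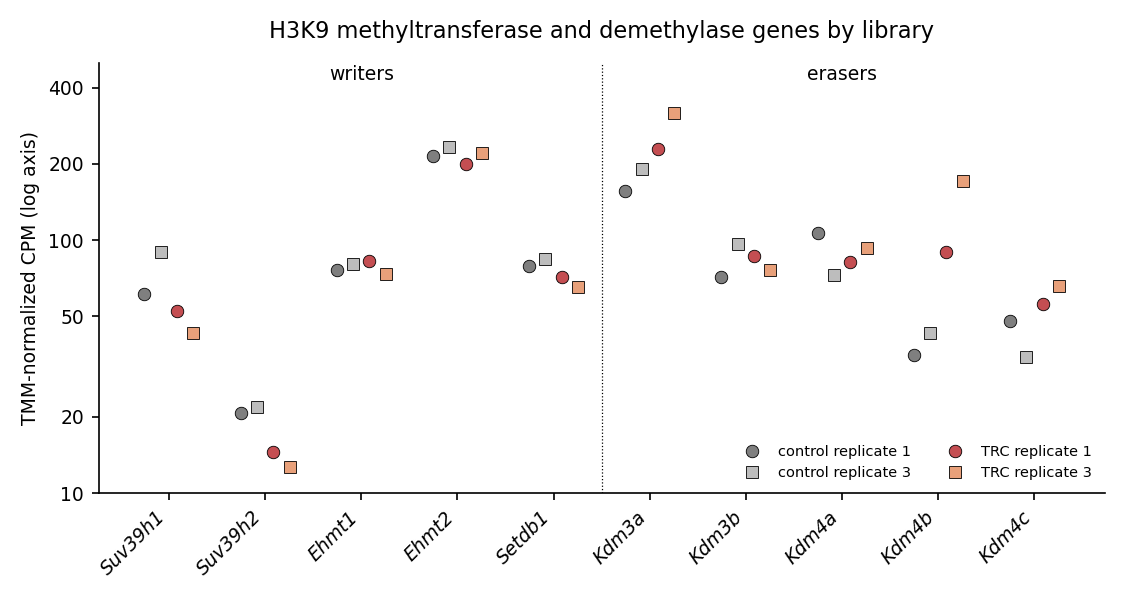
TMM-normalized CPM on a log axis for the 10 genes, with 1 point per library, circles for replicate 1 and squares for replicate 3, grey for control cells and red or orange for TRCs. *Kdm4b* stood at 35.1 and 42.9 CPM in control cells and at 89.8 and 171 CPM in TRCs, while the 4 libraries of *Ehmt1* and *Ehmt2* lay close together.

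*Kdm4b* (ENSMUSG00000024201) lies on the plus strand of chromosome 17 from 56326062 to 56402870 (GRCm38) and encodes a demethylase of trimethylated H3K9. It had 35.1 and 42.9 CPM in control cells against 89.8 and 171 CPM in TRCs. Both TRC libraries were far above both control libraries, and the higher TRC library had nearly double the level of the lower one. The mean was 39.0 ± 5.51 CPM in control cells and rose 3.34-fold to 130.2 ± 57.2 CPM in TRCs (SD, n = 2 each), with FDR = 6.85e-07 and an SE of 0.31 around the log2 value of 1.74. The FDR was 0.0184 in the quasi-likelihood test and 1.96e-06 in DESeq2. When single libraries were left out, the log2 fold change was lowest without TRC replicate 3, at 1.196, and highest without TRC replicate 1, at 2.11, and the FDR was at most 0.00205. In these fits the group with 1 library was assumed to vary like the other.

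*Kdm3a* (ENSMUSG00000053470, minus strand of chromosome 6 from 71588972 to 71632990) encodes an eraser of mono- and dimethylated H3K9. Its level was 156 and 191 CPM in control cells against 228 and 319 CPM in TRCs. The groups did not overlap, but the gap between them was about as wide as the gap between the control libraries. The log2 fold change was 0.66 (SE 0.24, 95% interval 0.18 to 1.14), and the gene just missed the threshold with an FDR of 0.0532. The FDR was 0.0408 in DESeq2, 0.0976 in the quasi-likelihood test and 0.5004 without TRC replicate 3.

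*Kdm4c* (ENSMUSG00000028397, plus strand of chromosome 4 from 74242497 to 74405860), like *Kdm4b* a gene for an eraser of the trimethylated form, had 47.8 and 34.6 CPM in control cells against 55.6 and 65.6 CPM in TRCs. Both TRC libraries were higher, and control replicate 1 was closer to TRC replicate 1 than to control replicate 3. The log2 fold change was 0.56 (SE 0.25, 95% interval 0.07 to 1.05, FDR = 0.111). Without control replicate 1 it was 0.81 with an FDR of 0.0342, and without control replicate 3 it was 0.34 with an FDR of 0.580.

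For *Kdm3b* (ENSMUSG00000038773) and *Kdm4a* (ENSMUSG00000033326, minus strand of chromosome 4 from 118136957 to 118180043) the groups overlapped. *Kdm3b*, the close relative of *Kdm3a*, had 71.6 and 96.3 CPM in control cells and 86.5 and 75.8 CPM in TRCs, so both TRC values lay between the control values. Its exons share 3468 bases, 24.6% of their length, with the opposite-strand *Gm26538*, which had at most 1 count in a library. The strand setting of the counting is not given in the sources used here. The low count of *Gm26538* therefore does not settle how reads in the shared bases were assigned. The log2 fold change of *Kdm3b* was −0.048 (95% interval −0.51 to 0.42, FDR = 0.924). *Kdm4a*, the first member of the KDM4 family, had 107 and 72.8 CPM in control cells and 82.2 and 92.9 CPM in TRCs, and here too the control libraries stood outside the TRC libraries. Its log2 fold change was −0.037 (95% interval −0.52 to 0.46, FDR = 0.945). The intervals leave room for a change of up to about 0.5 on the log2 scale in either direction.

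**Figure D2:**
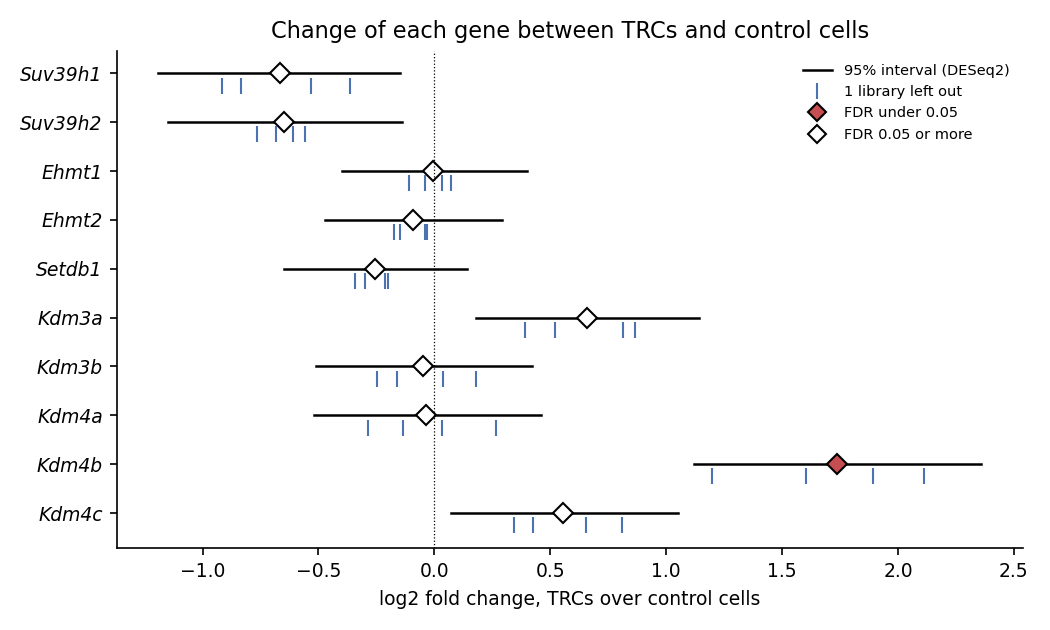
Log2 fold change of TRCs over control cells for each gene (diamonds, filled at FDR under 0.05), with the 95% interval from DESeq2 as a line and the values with 1 library left out as blue ticks. The interval of *Kdm4b*, from 1.12 to 2.36, lies above the upper end of the intervals of *Kdm3b* and *Kdm4a*.

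Promoter windows were read from RefSeq (GRCm38.p6) to show the sequence at the starts of genes whose groups did not overlap. A window spans 250 bases before and 50 bases after a start site. A window was found for 8 of the 10 genes, and none for *Kdm3b* and *Kdm4b*. The letters ACGTG and GCGTG, the core to which hypoxia-inducible factor binds, were searched on both strands, where a CACGTG counts on each strand. The following are the first *Kdm3a* window (chr6:71632868-71633167, minus strand), the second *Kdm4c* window (chr4:74251629-74251928, plus strand) and the first *Suv39h1* window (chrX:8074711-8075010, minus strand), with each match in capitals. They are shown as windows with 1 match, with several and with none, and they do not stand for erasers and writers, since the second *Suv39h1* window holds both motifs.
Kdm3a: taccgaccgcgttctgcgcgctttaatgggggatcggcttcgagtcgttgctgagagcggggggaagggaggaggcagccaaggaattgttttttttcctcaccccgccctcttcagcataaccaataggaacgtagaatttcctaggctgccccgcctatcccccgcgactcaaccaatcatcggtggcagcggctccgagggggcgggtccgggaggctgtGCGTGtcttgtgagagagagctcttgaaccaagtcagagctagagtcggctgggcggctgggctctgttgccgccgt
Kdm4c: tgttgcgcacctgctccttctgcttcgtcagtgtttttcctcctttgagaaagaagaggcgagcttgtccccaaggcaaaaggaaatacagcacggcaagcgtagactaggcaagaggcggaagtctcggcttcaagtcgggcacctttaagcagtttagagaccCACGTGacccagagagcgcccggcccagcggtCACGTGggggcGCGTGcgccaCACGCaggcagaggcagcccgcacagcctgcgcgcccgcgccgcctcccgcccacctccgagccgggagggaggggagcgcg
Suv39h1: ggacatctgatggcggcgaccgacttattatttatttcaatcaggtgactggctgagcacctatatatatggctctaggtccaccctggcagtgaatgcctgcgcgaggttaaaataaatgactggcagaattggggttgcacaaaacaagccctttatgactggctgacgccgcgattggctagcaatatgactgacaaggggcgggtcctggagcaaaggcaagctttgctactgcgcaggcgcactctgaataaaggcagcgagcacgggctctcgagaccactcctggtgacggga
The match in *Kdm3a* runs from 27 to 23 bases before the start. The *Kdm4c* window holds 2 copies of CACGTG, the first bases of which lie 85 and 53 bases before the start, and 2 matches to GCGTG, 1 on each strand. The other *Kdm4c* window, upstream of it, the other *Kdm3a* windows, downstream of the one shown, the first *Suv39h1* window and the window of the eraser *Kdm4a* had 0 matches. In all, 8 of the 13 windows of these genes held a match, beside 43.8% of all 32851 windows. They came from 7 of the 8 genes (each but *Kdm4a*), and no share by gene was computed for comparison. Windows of the writers *Ehmt1*, *Ehmt2*, *Setdb1* and *Suv39h2* and the second *Suv39h1* window also held matches, so each of the 5 writers had a window with a match.

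*Suv39h1* (ENSMUSG00000039231, minus strand of chromosome X from 8061171 to 8074760) encodes one of the enzymes of centromeric heterochromatin. It had 61.4 and 89.8 CPM in control cells against 52.4 and 42.9 CPM in TRCs. Both TRC libraries were lower, but control replicate 1 lay nearer to TRC replicate 1 than to the other control. The log2 fold change was −0.67 (SE 0.27, 95% interval −1.19 to −0.15), and the FDR of 0.0513 just missed the threshold. The log2 fold change was −0.91 without control replicate 1 and −0.37 without control replicate 3. It was −0.83 without TRC replicate 1 and −0.53 without TRC replicate 3, so its size depends on the libraries used in either group. Exons of *Suv39h1* share 767 bases, 14.55% of their length, with the opposite-strand *Gm14820*, which had at most 2 counts in a library. The strand setting of the counting is not given in the sources used here.

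*Suv39h2* (ENSMUSG00000026646, minus strand of chromosome 2 from 3455815 to 3475031), its close relative, was the lowest of the 10 genes in counts. It had 20.7 and 21.8 CPM in control cells and 14.5 and 12.6 CPM in TRCs, and here the libraries of each group lay close together with a gap between the groups. The log2 fold change was −0.65 (SE 0.26, 95% interval −1.15 to −0.14, FDR = 0.149), and it stayed between −0.77 and −0.56 when single libraries were left out. The FDR of *Suv39h2* was 0.0629 in DESeq2. Its exons share 357 bases, 8.10% of their length, with the opposite-strand gene *Dclre1c*, which had between 226 and 475 counts, and the strand setting of the counting is not given in the sources used here.

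The writers of gene-rich chromatin overlapped between the groups. *Ehmt2* (ENSMUSG00000013787, plus strand of chromosome 17 from 34898469 to 34914052) had 215 and 233 CPM in control cells and 199.98 and 221 CPM in TRCs, with a log2 fold change of −0.093 (95% interval −0.47 to 0.29, FDR = 0.838). *Ehmt1* (ENSMUSG00000036893, minus strand of chromosome 2 from 24789928 to 24919614) had 76.3 and 80.5 CPM in control cells and 82.8 and 73.5 CPM in TRCs, with a log2 fold change of −0.0049 (95% interval −0.40 to 0.40, FDR = 0.995). For both genes of this pair the TRC libraries spanned or crossed the range of the control libraries.

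*Setdb1* (ENSMUSG00000015697, minus strand of chromosome 3 from 95323525 to 95357202), the writer of retroelement silencing, had 79.3 and 84.1 CPM in control cells and 71.5 and 65.2 CPM in TRCs. The groups did not overlap, and the difference was small, with a log2 fold change of −0.26 (SE 0.20, 95% interval −0.65 to 0.14, FDR = 0.476).

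Levels of different genes were compared per kilobase of exon (CPM per kb over the merged exons of the annotation, which can understate genes with many isoforms). In control cells *Ehmt2* stood highest at 40.9 ± 2.31 (SD, n = 2), followed by *Kdm3a* at 21.1 ± 3.03, *Kdm4a* at 15.5 ± 4.17, *Suv39h1* at 14.3 ± 3.81 and *Setdb1* at 11.9 ± 0.496. Below these came *Ehmt1* at 9.66 ± 0.359, *Kdm4b* at 7.97 ± 1.13, *Kdm4c* at 7.08 ± 1.60, *Kdm3b* at 5.96 ± 1.24 and *Suv39h2* at 4.82 ± 0.177. The control libraries of *Kdm4a* overlapped those of *Suv39h1*, and those of *Suv39h1* overlapped *Setdb1*. Those of *Kdm4b* overlapped *Kdm4c*, and those of *Kdm4c* overlapped *Kdm3b*. Within each control library *Suv39h1* was above *Setdb1*, by little in replicate 1 (11.65 and 11.57 CPM per kb). The order of the other overlapping neighbours changed between the control libraries, so they cannot be ordered.

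In TRCs *Ehmt2* at 38.3 ± 2.66, *Kdm3a* at 33.3 ± 7.80 and *Kdm4b* at 26.6 ± 11.7 CPM per kb (SD, n = 2) formed a top group whose neighbours overlapped. Within each TRC library they stood in this order. *Kdm4b* was below *Kdm4a* in control cells and above it in TRCs without overlap. In TRCs the libraries of *Kdm4c* overlapped those of *Setdb1*, those of *Setdb1* overlapped *Ehmt1* and those of *Ehmt1* overlapped *Suv39h1*. Within each TRC library *Setdb1* was above *Ehmt1* and *Ehmt1* above *Suv39h1*, by little in replicate 1 (10.4, 10.2 and 9.95 CPM per kb). The order of *Kdm4c* and *Setdb1* changed between the TRC libraries, so these cannot be ordered. *Kdm3b* and *Suv39h2* stood below all of these genes. The summed level of the 5 erasers was 57.9 and 57.4 CPM per kb in control cells against 76.0 and 106 in TRCs. For the 5 writers it was 76.5 and 86.7 in control cells and 70.3 and 69.8 in TRCs. The sum of the erasers was below that of the writers in both control libraries and above it in both TRC libraries. The largest rises in mean level among the erasers were those of *Kdm4b*, from 7.97 to 26.6, and *Kdm3a*, from 21.1 to 33.3. The means of *Kdm3b* (5.96 and 5.76) and *Kdm4a* (15.5 and 15.1) did not rise, so the sums do not describe the erasers as a group. The crossing of the sums was not tested.

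Ratios between related genes were compared per library. The 3 eraser ratios did not overlap between the groups, and those of *Kdm4b* and *Kdm4c* share *Kdm4a* as the denominator. Among all single genes tested 60.6% did not overlap either, and no such share was computed for ratios, so nothing is read from the split. The ratio of *Kdm4b* to *Kdm4a* per kb was 0.388 and 0.696 in control cells against 1.29 and 2.17 in TRCs, with *Kdm4b* the lower of the pair in both control libraries and the higher in both TRC libraries. *Kdm3a* over *Kdm3b* was 3.73 and 3.40 in control cells and 4.52 and 7.21 in TRCs. *Kdm4c* over *Kdm4a* was 0.444 and 0.472 in control cells and 0.672 and 0.701 in TRCs. Among the writers the groups overlapped, with *Suv39h1* over *Suv39h2* from 2.48 to 3.45 in control cells and from 2.84 to 3.03 in TRCs, and *Ehmt2* over *Ehmt1* from 4.17 to 4.29 and from 3.57 to 4.44. These ratios are descriptions without a test.

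**Figure D3:**
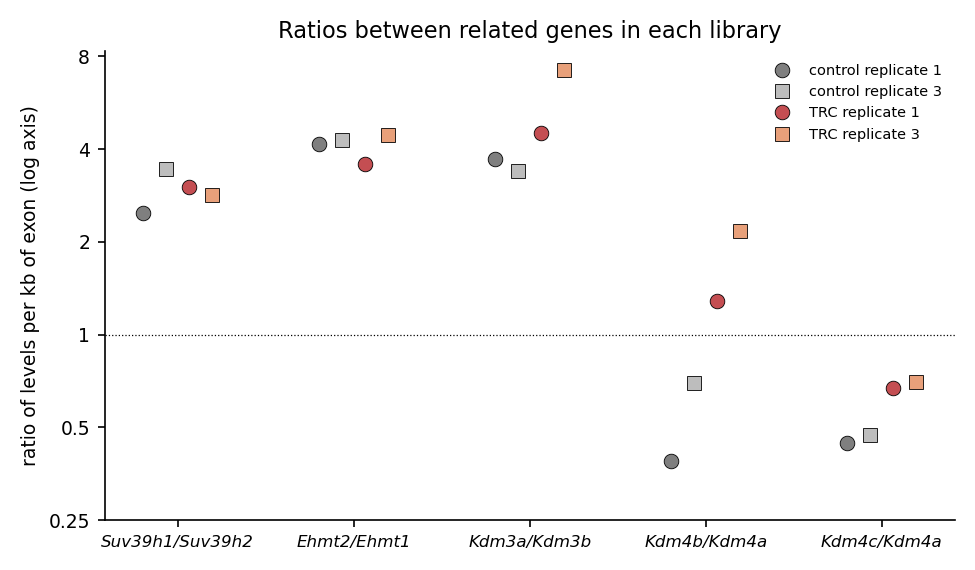
Ratio of levels per kb of exon between related genes in each library, on a log axis, with circles for replicate 1, squares for replicate 3, grey for control cells and red or orange for TRCs. The 3 eraser ratios are higher in both TRC libraries than in both control libraries, and *Kdm4b* over *Kdm4a* crosses 1.

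Of 14 hypoxia reference genes, 14 were called higher in TRCs, beside 8.81% of all genes tested, and their log2 fold changes had a median of 2.36. The list was chosen with earlier results of these data known, so its count is not an independent result. The count was 12 in the quasi-likelihood test and 12 in DESeq2, where *Vegfa* (FDR = 0.163) and *Adm* (FDR = 0.0853) were lost. Without TRC replicate 3 the count was 11 and the median 1.72, and without control replicate 1 the count was 14 and the median 3.20. The 3 of smallest FDR were the mitophagy gene *Bnip3*, *Ankrd37* and *Pdk1*, the kinase gene that limits entry of pyruvate into mitochondria, with log2 fold changes of 5.13, 5.58 and 4.39. The summed level of the list was 2538 and 2931 CPM in control cells against 8044 and 16112 CPM in TRCs. In 14 of the 14 genes TRC replicate 3 exceeded TRC replicate 1, with a median ratio of 2.07. The same ratio was 1.90 for *Kdm4b*, 1.40 for *Kdm3a* and 1.18 for *Kdm4c*, and 1.0005 at the median of all genes tested. For *Kdm4a* and *Ehmt2* it was 1.13 and 1.10, near that of *Kdm4c*. The ratio was above 1 in 5 of the 10 genes and in 5751 of the 11483 genes tested. On the log2 scale relative to the control mean, the median of the list was 1.72 and 2.90 in TRC replicates 1 and 3, and *Kdm4b* was 1.199 and 2.12, *Kdm3a* 0.40 and 0.88, and *Kdm4c* 0.45 and 0.68. The part of hypoxia in these values was not tested.

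Of 14 DNA replication genes, among them *Mcm2* to *Mcm7*, which encode the replicative helicase, 11 were called lower in TRCs, beside 7.05% of all genes tested. This list too was chosen with earlier results of these data known. The median over the list was −0.88 on the log2 scale, and *Pcna*, *Rrm1* and *Gins2* were not called (FDR from 0.0804 to 0.569). The 3 of smallest FDR were the origin licensing gene *Cdc6*, *Mcm3* and the thymidylate synthase gene *Tyms*, with log2 fold changes of −1.30, −1.06 and −1.01. Without control replicate 3 the count was 0, without TRC replicate 1 it was 1 and without TRC replicate 3 it was 2, and it was 5 in the quasi-likelihood test. The 14 genes were higher in control replicate 3 than in control replicate 1, with a median ratio of 1.61, and the ratio of *Suv39h1* was 1.46. For *Suv39h2* it was 1.05, and the median of all genes tested was 1.003. The ratio was above 1 in 8 of the 10 writers and erasers, among them *Kdm3b* at 1.34, *Kdm3a* at 1.23 and *Kdm4b* at 1.22. It was above 1 in 5791 of the 11483 genes tested. The summed level of the list was 2990 and 4745 CPM in control cells against 2289 and 2185 CPM in TRCs. The part of cell proliferation in the values of *Suv39h1* and *Suv39h2* was not tested.

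**Figure D4:**
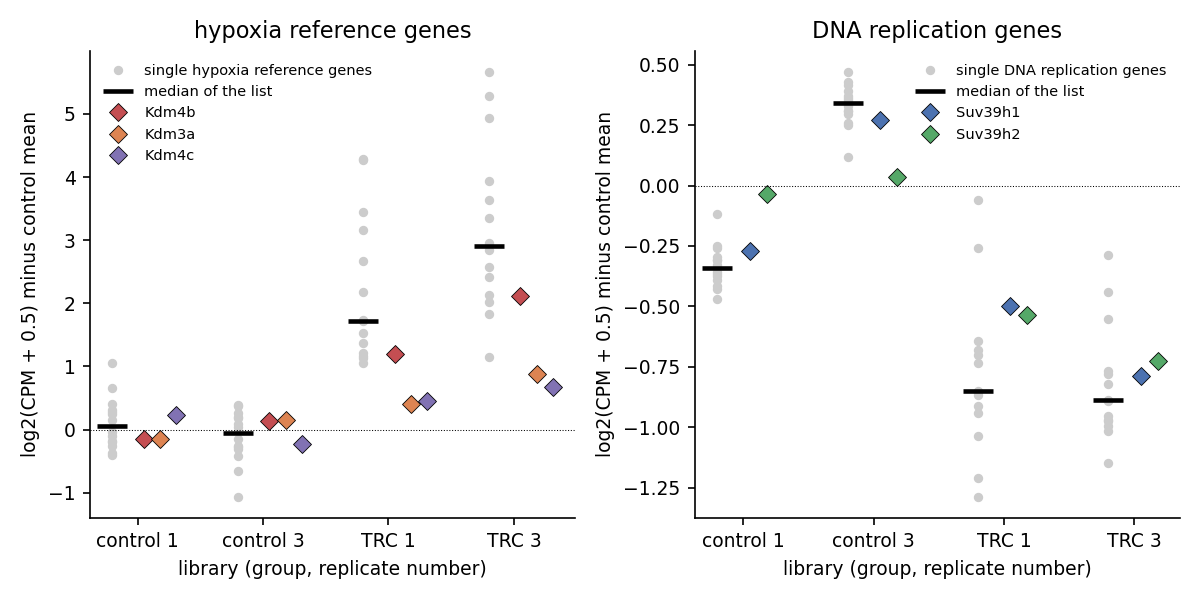
Level in each library relative to the control mean, as log2(CPM + 0.5), for single genes of a list (grey), the median of the list (black bar) and the writers or erasers named (diamonds). In the left panel *Kdm4b* lies below the median of the 14 hypoxia genes in both TRC libraries, and in the right panel *Suv39h1* and the 14 replication genes are higher in control replicate 3 than in control replicate 1.

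Of 4 other H3K9 methyltransferase genes 1 was called higher. Over all genes tested 8.81% were called higher and 7.05% lower, and counts of 1 in this list and those below are too small to be read against these shares. *Prdm16*, known from brown fat, had 155 and 188 CPM in control cells against 246 and 435 CPM in TRCs, with FDR = 0.00692 and a log2 fold change of 0.99 (SE 0.29). Its FDR was 0.0627 in the quasi-likelihood test, 0.328 without TRC replicate 3 and 0.0886 without control replicate 1. The log2 fold changes of *Setdb2*, *Prdm2* and *Mecom* were −0.043, −0.13 and 0.27, with FDR values from 0.634 to 0.948.

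Of 8 genes for partners of the writers, 7 were tested and 1 was called lower. *Morc2a*, which acts in silencing with the HUSH complex, had 112 and 107 CPM in control cells and 71.6 and 67.6 CPM in TRCs, with FDR = 0.0239 and a log2 fold change of −0.66 (SE 0.20). Leaving out any 1 library gave an FDR between 0.0699 and 0.225. The median log2 fold change of the list was −0.47. It was 0.11 for the other methyltransferases, −0.14 for the readers, 0.10 for the other demethylases and 0.16 for the other JmjC genes below. The positive log2 fold changes among the partners were those of *Atf7ip* (0.030, FDR = 0.956) and *Tasor* (0.44, FDR = 0.422). *Trim28*, the partner of SETDB1, had 346 and 474 CPM in control cells and 307 and 253 CPM in TRCs, with a log2 fold change of −0.55 and an FDR of 0.121.

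Among 8 readers of methylated H3K9, 1 was called lower and 7 were not called. *Uhrf1*, which links H3K9 methylation to the copying of DNA methylation, fell from 331 and 556 CPM in control cells to 186 and 199 CPM in TRCs, with FDR = 0.000326 and a log2 fold change of −1.21 (SE 0.27). The FDR was 0.0505 without control replicate 3, and *Uhrf1* had a ratio of 1.68 between control replicates 3 and 1, beside the median of 1.61 of the replication genes. The heterochromatin protein genes *Cbx1*, *Cbx3* and *Cbx5* had log2 fold changes of −0.23, −0.32 and −0.055, with FDR values from 0.370 to 0.908.

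Of 7 other H3K9 demethylase genes, 6 were tested, 1 was called higher and 1 lower. *Kdm7a*, whose product acts on dimethylated H3K9 and H3K27, rose from 47.8 and 22.4 CPM to 99.8 and 79.1 CPM, with FDR = 0.000653 and a log2 fold change of 1.35 (SE 0.34). Its FDR was 0.0532 without TRC replicate 1. *Hr* fell from 9.47 and 5.44 CPM to 3.63 and 1.63 CPM, with FDR = 0.0284 and a log2 fold change of −1.501 (SE 0.51). That call was lost in the quasi-likelihood test (FDR = 0.0922), without control replicate 1 (FDR = 0.197) and without TRC replicate 3 (FDR = 0.394). *Jmjd1c*, the third relative of *Kdm3a*, had a log2 fold change of −0.35 (FDR = 0.311).

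Among 11 other genes of the JmjC family, which act on other histone marks or other proteins, 3 were called higher and 0 lower, with 3 lower at an unadjusted p under 0.05. Of all genes tested, 8.81% were called higher and 7.05% lower, and 13.2% were lower at an unadjusted p under 0.05. *Kdm5b*, which encodes an eraser of H3K4 methylation, rose from 28.8 and 15.2 CPM in control cells to 114 and 107 CPM in TRCs, with FDR = 1.71e-12 and a log2 fold change of 2.33 (SE 0.31). This was the largest change among the genes of the writer, reader and JmjC lists that were tested, the 10 genes included, and its FDR was at most 8.65e-08 with each library left out. *Kdm6b*, for an eraser of H3K27 methylation, had a log2 fold change of 0.99 (FDR = 0.0167), and *Jmjd6* of 0.92 (FDR = 0.0259). Both calls were lost in the quasi-likelihood test, with FDR values of 0.0924 and 0.103. Without TRC replicate 3 the FDR was 0.318 for *Kdm6b* and 0.659 for *Jmjd6*, and without control replicate 3 it was 0.290 and 0.128. For *Jmjd6* it was 0.134 without control replicate 1. By DESeq2 1 gene of this list, *Riox1*, was called lower.

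**Figure D5:**
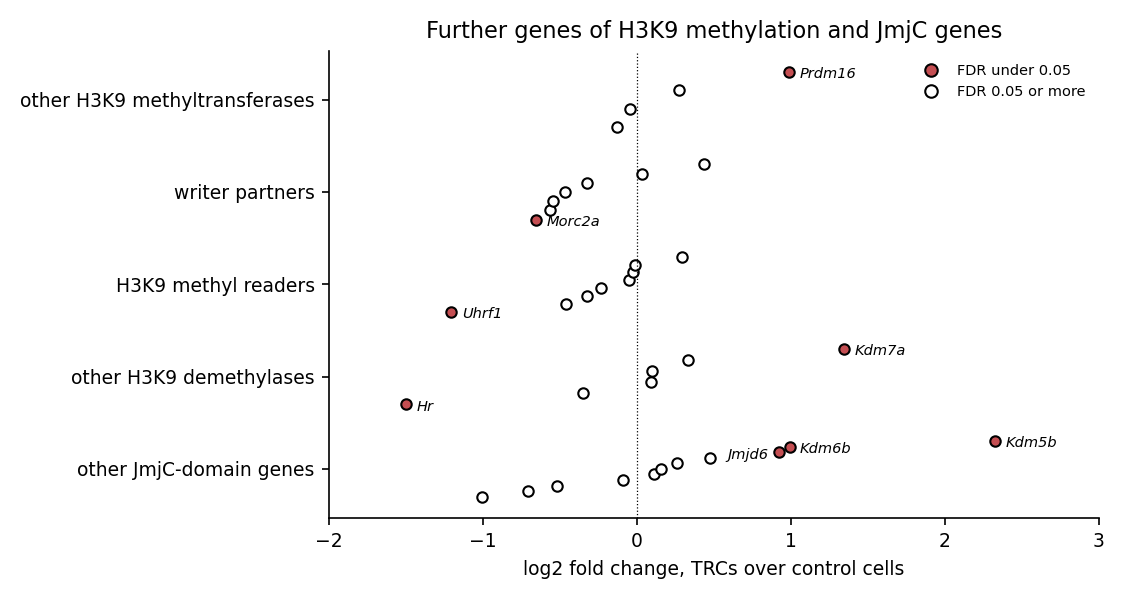
Log2 fold change of TRCs over control cells for the tested genes of 5 further lists, each point a gene, filled and named at FDR under 0.05. *Kdm5b* lies farthest to the right at 2.33 and *Hr* farthest to the left at −1.501.

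The genes whose levels over the 4 libraries were most like those of *Kdm4b*, by Euclidean distance between centred log2(CPM + 0.5) values, were *Gm10642* at 0.073, *Pgk1* at 0.15 and *Ldha* at 0.19. *Pgk1* and *Ldha* encode glycolytic enzymes and are in the hypoxia list. *Pgk1* had 867.8 and 1145 CPM in control cells against 2081 and 4390.4 CPM in TRCs, and *Ldha* had 816 and 1179.5 CPM and 2199 and 3964 CPM. *Gm10642* was low, with 1.46 and 1.84 CPM in control cells and 4.33 and 8.29 CPM in TRCs. At such levels the added 0.5 narrows the spread of the log2 values, so the distance of *Gm10642* depends on it. The likeness is over 4 libraries in 2 groups, with the same library sizes behind each gene.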

How the data were processed

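RNA-seq counts of 4 samples were analysed, 2 of parental B16F1 cells and 2 of TRCs, grouped by the sample labels. Per the methods and the submitters' processing notes, the authors used Trimmomatic 0.35 for trimming and TopHat2 2.1.0 for alignment to GRCm38 of reads from stranded libraries, and deposited raw htseq-count counts per Ensembl gene. The mode and strand setting are not given in the sources used here. Totals on no gene, 20.2% to 29.0% of the alignments, were removed. Symbols and positions came from GENCODE M21, which held 37607 of the 39179 identifiers.

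Genes below 1 CPM in 3 or more samples were dropped. The exact test with tagwise dispersions and TMM factors was run in edgeR 4.0.16 (R 4.3.3, prior count 0.125), and SE in DESeq2 1.42.0. The step was run on simulated counts with the same dispersion for every gene, as a check of the code only. Named genes were the 10 members, the called genes of each list with the smallest FDR (up to 3 in each direction), every gene of lists of up to 4, and the 3 genes with the profile nearest to the member of smallest FDR. *Trim28*, *Atf7ip*, *Tasor*, *Cbx1*, *Cbx3*, *Cbx5*, *Jmjd1c*, *Riox1*, *Vegfa*, *Adm*, *Pcna*, *Rrm1* and *Gins2* were added after values were seen. Members and lists were chosen with earlier results of these data known. Alternatives were other filters, normalizations, dispersions and tests, a replicate block and each library left out. Plots were drawn with matplotlib 3.10.9.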

Additional observations from a re-analysis of the deposited data

Results flagged for a closer look

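Alignments that were not unique are assigned to no gene and stand outside the comparisons above. Their share was above both control libraries, at 15.2% and 17.1%, in both TRC libraries, at 18.3% in TRC replicate 1 and 25.2% in TRC replicate 3. The difference between the groups was not tested.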

How the results depend on the processing

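*Kdm4b* kept its direction and an FDR under 0.05 in all 13 alternatives. Of 130 values of log2 fold changes of the 10 genes under alternatives, 115 kept their direction and side of the threshold, 8 newly passed it and 7 changed sign. The sign changed for *Ehmt1* with at least 1 CPM in at least 3 samples (0.0012) and, with single libraries left out, for *Ehmt1* (from −0.11 to 0.072, above 0 without replicate 3 of either group), *Kdm3b* (from −0.25 to 0.18, above 0 without replicate 3 of either group) and *Kdm4a* (from −0.29 to 0.27, above 0 without replicate 1 of either group). The number of the 10 genes called higher was 2 with library size only, with trended dispersions and with DESeq2, where *Kdm3a* was added, and from 1 to 2 with each library left out. The number called lower, 0 in the reported test, was 1 with library size only and with trended dispersions, where *Suv39h1* was added, and from 0 to 1 with each library left out.

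Over all genes, 1012 were called higher and 810 lower. The quasi-likelihood test called 567 and 487, and with the replicate block 477 and 308. With each library left out, from 500 to 1078 genes were called higher and from 269 to 854 lower, the largest counts being those without control replicate 1. The cause was not tested. Control and TRC libraries with a shared number hardly deviated together (r = 0.027 across genes), so the samples share a number, and no more is known of a pairing. With the block the FDR of *Kdm4b* was 0.0213 and no other of the 10 genes was called.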

Other observations

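Genes held silent by H3K9 or DNA methylation in most somatic cells were looked at as a list of 13 germline genes. None of them passed the filter on low counts, and 5 had no count in any library, among them *Dazl*. The summed level of the list was 2.11 and 1.33 CPM in control replicates 1 and 3 and 1.59 and 1.73 CPM in TRC replicates 1 and 3, so the groups overlapped. Most of it came from *Ddx4*, with 1.33 and 0.680 CPM in control cells and 0.625 and 0.793 CPM in TRCs, and *Brdt*, with 0.765 and 0.510 CPM and 0.914 and 0.889 CPM. *Sox2*, a stem cell transcription factor gene, had 0 counts in each of the 4 libraries, where 3 counts correspond to between 0.0689 and 0.0835 CPM. These floors cover counting error only.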
